A study of Mus musculus with 5 samples.

Results

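Translation factors are the proteins that load, start and move the ribosome, and their genes were examined in cancer cells growing in mouse lungs. The genes were chosen by symbol: every gene of the deposited cancer cell table whose name starts with Eif (eukaryotic initiation factor) or Eef (eukaryotic elongation factor), with Eif5a and Eif5a2 left out. This gave 67 of 23771 genes in 7 groups, namely Eif1 (5 genes), Eif2 (15), Eif3 (14), Eif4 (15), Eif5 (2), Eif6 (1) and Eef (15). The symbol rule also took in regulators, such as eIF2 alpha kinases and elongation factor methyltransferases, and genes with other roles, such as Eif4a3 and Eef1e1. Eif2c5 carries an old Argonaute symbol and is a lincRNA in the GENCODE M21 annotation.

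The cells were 4T1 mouse mammary carcinoma cells carrying the Thy1 form CD90.1 as a tag. Female BALB/c mice first received 3 intravenous injections per week for 3 weeks of medium conditioned by pieces of 4T1 breast tumors, called tumor-secreted factors (TSF), or of control medium (CM). All mice then received 25000 cancer cells intravenously, and lungs were taken at day 16, at 11 weeks of age. The library of TSF mice (TSF2) and that of CM mice (CM2) each pooled the dissociated lungs of 3 mice and were made by 5' single-cell RNA sequencing. There was 1 library per group, so no test between groups was possible, and every difference given here is between 2 libraries. The data cannot tell an effect of TSF from other differences between these pools.

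The CM2 library held 29 cancer cells and the TSF2 library 139, out of 3835 and 5197 cells. Cancer cells had a median of 27679 UMIs (unique molecular identifiers, 1 per captured RNA molecule) in CM2 and 26615 in TSF2. Cells with under 10000 UMIs made up 27.6% of the CM2 cancer cells (8 cells, exact 95% interval 12.7 to 47.2%) and 10.1% of the TSF2 cancer cells (14 cells, interval 5.62 to 16.3%). The libraries shared 31 cell barcodes over all cells and 0 among cancer cells. The carcinoma keratins Krt8 and Krt18 were each seen in 96.6% or more of these cells in both libraries, and the CD90.1 tag in 6.90% of CM2 and 34.5% of TSF2 cells. Other carcinoma markers were uneven: 4 of the 7 listed were at least 1.5-fold higher in TSF2, among them Epcam, seen in 27.6% of CM2 (interval 12.7 to 47.2%) and 68.3% of TSF2 cells (interval 59.9 to 76.0%), and none was 1.5-fold lower. The part of this difference in the results on factor genes was not tested. The pan-leukocyte gene Ptprc was seen in no CM2 cell and in 2.88% of TSF2 cells.

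Initiation begins when eIF2 brings the initiator tRNA to the small ribosomal subunit together with eIF1, eIF1A, eIF3 and eIF5. The eIF4F complex (the cap-binding protein eIF4E, the scaffold eIF4G and the helicase eIF4A) recruits the mRNA, and eIF2B recharges eIF2 with GTP for the next round. In elongation, eEF1A delivers tRNAs, the eEF1B subunits recharge eEF1A, and eEF2 moves the ribosome along the codon. Cancer cells are known to tune this machinery through 4E-BP proteins, which hold eIF4E, and through kinases that phosphorylate eIF2 alpha and slow initiation.

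Many mRNAs of this machinery are known to start with a terminal oligopyrimidine tract, a run of C and T at the 5' end. Start regions are shown for that reason, for abundant factors (Eef1a1, Eef2, Eif1, Eef1b2 and Eif4a1), for the members with the longest runs among those described (Eif2s3x and Eif3f), and for the 4 members that differed by at least 1.5-fold. Each line gives 10 bases before and 20 bases from the annotated start of a RefSeq transcript (GRCm38.p6), with the longest run of C and T in capitals.
Eef1a1, chr9:78481705-78481734, minus strand: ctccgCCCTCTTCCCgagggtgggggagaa
Eef2, chr10:81176621-81176650, plus strand: aaggccgggcgttgacgtcagcggTCTCTT
Eif1, chr11:100319939-100319968, plus strand: ggcgTCacaggggcggctatataagtgaat
Eef1b2, chr1:63176821-63176850, plus strand: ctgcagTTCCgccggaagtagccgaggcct
Eif4a1, chr11:69672404-69672433, minus strand: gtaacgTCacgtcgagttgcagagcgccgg
Eif3f, chr7:108934405-108934434, plus strand: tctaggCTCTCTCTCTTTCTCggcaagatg
Eif2s3x, chrX:94212632-94212661, minus strand: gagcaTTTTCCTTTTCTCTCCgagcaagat
Eif3l, chr15:79075213-79075242, plus strand: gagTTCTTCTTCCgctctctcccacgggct
Eif2b2, chr12:85219471-85219500, plus strand: ccgagcggaagttgaCCTCTCTCggcccgg
Eif1ad, chr19:5366803-5366832, plus strand: gctttcgatggcttttgTTTCTCCagcggc
Eif2ak2, chr17:78882553-78882582, minus strand: agcagtgtgggaaggcggagTCCgccggga

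A run of at least 8 bases that were each C or T, on the mRNA strand, was sought in this window. It was present in 10 of the 52 member genes with a RefSeq start (19.2%) and in 13.0% of all 27025 genes with one. By another measure, at least 6 C or T among the first 8 transcribed bases, the shares were 19.2% of the members and 18.5% of all genes, which shows no such gap. The runs of Eif3f (15 bases) and Eif2s3x (16 bases) cross the start, that of Eif2b2 lies after it, and the Eef2 run is cut off by the end of the window. The run counted for Eif4e lies wholly before its annotated start, so not every counted run is within the transcript. Of the 9 members with a run that were also detected in enough cells, 3 were higher and 6 were lower in TSF2, so genes with a run lay on both sides. A run is a description of these letters and not evidence of regulation. The starts are annotated and were not measured here, so a window without a run does not show that the mRNA lacks a tract. Genes with several annotated starts were counted by their highest value in both measures. The 10 genes with a run include the lincRNA Eif2c5.

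The level of a gene is its mean CP10k, the UMIs of the gene per 10000 UMIs of a cell, averaged over all cancer cells of a library. A UMI counts a molecule from its 5' end, so levels were not divided by gene length. Ratios are TSF2 over CM2 after adding 0.1 CP10k to each mean, which shrinks the ratios of low genes. The files hold no spread over cells for these means, so they carry no error here, while the share of cells in which a gene was seen is given with an exact (Clopper-Pearson) 95% interval that covers counting error only.

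Of the 67 genes, 63 passed the detection limit, a UMI in at least 10% of the cells of 1 or both libraries. The 67 factor genes summed to 186.3 CP10k in TSF2 and 201.0 CP10k in CM2, or 1.86% and 2.01% of all UMIs. The median log2 ratio of the 63 genes was -0.16, beside -0.13 over all 10201 genes that passed the same limit. A ratio above 1 was found for 26 of 63 factor genes (41.3%), beside 40.3% of all genes. The factor genes as a list thus lay close to the middle of all genes.

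At least 1.5-fold higher in TSF2 were 2 factor genes (3.17%), Eif2b2 and Eif3l, against 7.33% of all genes. At least 1.5-fold lower were also 2 (3.17%), Eif1ad and Eif2ak2, against 17.3% of all genes. These counts are small and depend on the scale. With 1 CP10k added in place of 0.1, no factor gene passed 1.5-fold in either direction, beside 0.755% higher and 1.95% lower over all genes. Scaled without Rpl and Rps genes 4 were higher and 1 was lower, beside 10.9% and 16.1% of all genes. The other 4 genes were hardly detected. Eef1a2, the elongation factor 1A form of neurons and muscle, was seen in no cancer cell, for which 3 cells of the total set the limit, 2.16% in TSF2 and 10.3% in CM2. The exact interval of such a share reaches 2.62% in TSF2 and 11.9% in CM2. Eif4e3 was seen in 2 TSF2 cells, Eef1akmt3 in 3 TSF2 cells and Eif2c5 in 1 CM2 cell.

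**Figure D1:**
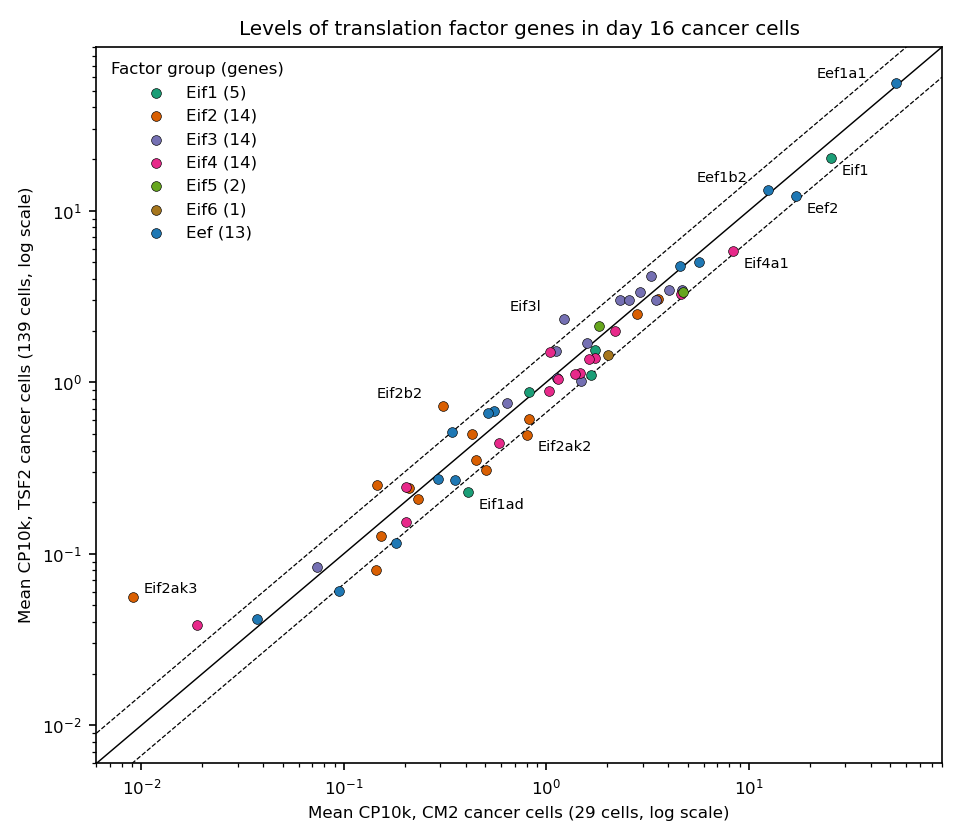
Mean CP10k of the 63 detected factor genes in CM2 (x axis, 29 cells) and TSF2 cancer cells (y axis, 139 cells), both on log scales, colored by factor group. The solid line marks equal levels and the dashed lines a 1.5-fold difference without the added 0.1 CP10k. Eef1a1 has the highest level in both libraries, Eif2b2 and Eif3l lie above the upper line, as do a few genes of low level, and Eef2 and Eif4a1 lie between the solid and the lower line.

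The Eif1 group and the Eif5 group act in start codon selection. Eif1, whose product guards against initiation at wrong codons, had the highest level of its group, with 25.6 CP10k in CM2 and 20.3 CP10k in TSF2 (log2 ratio -0.33). It was seen in all 29 CM2 cells and in 136 of 139 TSF2 cells (97.8%, interval 93.8 to 99.6%). Its close paralog Eif1b had far lower levels, 0.823 CP10k in CM2 and 0.876 CP10k in TSF2. Reads of Eif1 and Eif1b, and of Eif1a and Eif1ax, could be split between near-identical copies, so these values are uncertain.

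Eif1a and Eif1ax encode eIF1A, which helps the ribosome scan. Eif1a had 1.65 CP10k in CM2 and 1.11 CP10k in TSF2 (log2 ratio -0.54), and Eif1ax 1.74 CP10k in CM2 and 1.55 CP10k in TSF2 (log2 ratio -0.16). Eif1ad, an eIF1A domain protein, had 0.410 CP10k in CM2 and 0.228 CP10k in TSF2, which is 1.55-fold lower in TSF2 with 0.1 CP10k added. Its share of cells was close in both, 48.3% of CM2 (14 cells, interval 29.4 to 67.5%) and 43.2% of TSF2 (60 cells, interval 34.8 to 51.8%). The 5 genes of the group summed to 30.2 CP10k in CM2 and 24.1 CP10k in TSF2, a ratio of 0.797, and without Eif1 the ratio was 0.813.

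The Eif5 group had only 2 members left, and they lay on opposite sides. Eif5, the GTPase-activating protein of eIF2, had 4.72 CP10k in CM2 and 3.34 CP10k in TSF2 (log2 ratio -0.49). Eif5b, which joins the ribosomal subunits, had 1.83 CP10k in CM2 and 2.14 CP10k in TSF2 (log2 ratio 0.21), and was seen in 82.8% of CM2 (interval 64.2 to 94.2%) and 96.4% of TSF2 cells (interval 91.8 to 98.8%). Eif6, whose product keeps the large subunit from joining too early, had 2.03 CP10k in CM2 and 1.45 CP10k in TSF2 (log2 ratio -0.46), with close shares of 86.2% and 87.8%.

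The subunits of eIF2 itself were all lower in TSF2, as were 59.7% of all genes, but none by 1.5-fold. The median log2 ratio over all genes was -0.13. Eif2s1, the alpha subunit that stress kinases phosphorylate, had 2.82 CP10k in CM2 and 2.50 CP10k in TSF2 (log2 ratio -0.17). Eif2s2 (beta) had 3.56 CP10k in CM2 and 3.05 CP10k in TSF2 (log2 ratio -0.22). Eif2s3x (gamma) had 0.823 CP10k in CM2 and 0.613 CP10k in TSF2 (log2 ratio -0.37). The alternative carriers of initiator tRNA had small differences, with log2 ratios of 0.18 for Eif2a and -0.11 for Eif2d, which changes side on centring.

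The genes of eIF2B, the 5-subunit exchange factor that recharges eIF2, were split. Eif2b2 (ENSMUSG00000004788, GRCm38 chromosome 12, 85219481 to 85226628, plus strand), the beta subunit, had the largest ratio among all the detected factor genes. It had 0.309 CP10k in CM2 and 0.727 CP10k in TSF2, which is 2.02-fold higher with 0.1 CP10k added. A UMI of it was found in 15 of 29 CM2 cells (51.7%, interval 32.5 to 70.6%) and 108 of 139 TSF2 cells (77.7%, interval 69.9 to 84.3%). These intervals touch at their ends, and this was also the largest difference between shares, 26.0 percentage points.

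Eif2b1 (alpha) was higher in TSF2 too, with 0.146 CP10k in CM2 and 0.251 CP10k in TSF2 (log2 ratio 0.51). Eif2b3 (gamma) was lower, with 0.503 CP10k in CM2 and 0.307 CP10k in TSF2 (log2 ratio -0.57). The delta subunit Eif2b4 had a log2 ratio of 0.14 and the catalytic epsilon subunit Eif2b5 one of -0.29. The genes of this complex lay on both sides, and their sum was 1.62 CP10k in CM2 and 1.88 CP10k in TSF2.

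The 4 kinases of eIF2 alpha each sense a different stress. Eif2ak2 (PKR, activated by double-stranded RNA and known as an interferon-induced gene) had 0.803 CP10k in CM2 and 0.494 CP10k in TSF2, 1.52-fold lower with 0.1 CP10k added. Its share of cells was nearly equal, 58.6% of CM2 (17 cells, interval 38.9 to 76.5%) and 56.1% of TSF2 (78 cells, interval 47.5 to 64.5%), so the difference lay in the level among cells with a UMI, 1.37 CP10k in CM2 and 0.880 CP10k in TSF2. Eif2ak4 (GCN2, the amino acid sensor) was seen in 27.6% of CM2 cells (8 cells, interval 12.7 to 47.2%) and 15.8% of TSF2 cells (22 cells, interval 10.2 to 23.0%).

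Eif2ak3 (PERK, the sensor of the endoplasmic reticulum) went the other way but rested on few cells. It was seen in 1 CM2 cell (3.45%, interval 0.0873 to 17.8%) and in 18 TSF2 cells (12.9%, interval 7.86 to 19.7%). Eif2ak1 (HRI, the heme sensor) had 0.152 CP10k in CM2 and 0.126 CP10k in TSF2, with a log2 ratio of -0.16. The summed level of the 4 kinases was 1.11 CP10k in CM2 and 0.756 CP10k in TSF2.

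The Eif3 group encodes the large scaffold that holds the small subunit ready for initiation. By mean level 9 of its 14 genes were higher in TSF2, beside 40.3% of all genes. Centred on the median of all genes, 10 were higher, beside 50.0% of all genes, and Eif3g changes side. The median log2 ratio of the 14 genes was 0.15, beside -0.13 over all genes. The summed level was 30.6 CP10k in CM2 and 31.9 CP10k in TSF2. The sum hides an uneven pattern among subunits. By share of cells, with depth not accounted for, 11 of the 14 were higher in TSF2 and 3 were lower. The share in TSF2 was higher for 49.1% of all genes. Mean and share were opposed for 4 of the 14, beside 21.7% of all genes. Eif3l (ENSMUSG00000033047, GRCm38 chromosome 15, 79075179 to 79094405, plus strand) had 1.23 CP10k in CM2 and 2.32 CP10k in TSF2, 1.83-fold higher with 0.1 CP10k added. A UMI of it was found in 86.2% of CM2 cells (25 cells, interval 68.3 to 96.1%) and 92.8% of TSF2 cells (129 cells, interval 87.2 to 96.5%), so its difference lay mostly in the level per cell.

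The next highest ratios in the group were those of Eif3b, Eif3e and Eif3h. Eif3h had 3.29 CP10k in CM2 and 4.17 CP10k in TSF2 (log2 ratio 0.34). Eif3e had 2.31 CP10k in CM2 and 3.00 CP10k in TSF2 (log2 ratio 0.36), and Eif3b, part of the structural core, 1.11 CP10k in CM2 and 1.52 CP10k in TSF2 (log2 ratio 0.42). Eif3i, Eif3k, Eif3j1, Eif3m and Eif3j2 had log2 ratios from 0.08 to 0.23. Eif3j1 and Eif3j2 are near-identical copies whose reads could be split.

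The lower subunits included the largest one. Eif3a, the subunit around which the complex is built, had 4.70 CP10k in CM2 and 3.43 CP10k in TSF2 (log2 ratio -0.44). Eif3d, a subunit that can itself bind the cap of some mRNAs, had 1.48 CP10k in CM2 and 1.01 CP10k in TSF2 (log2 ratio -0.51). Eif3f had a log2 ratio of -0.23, Eif3c of -0.20 and Eif3g of -0.09. In CM2 the subunit with the highest level was Eif3a, and in TSF2 it was Eif3h.

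**Figure D2:**
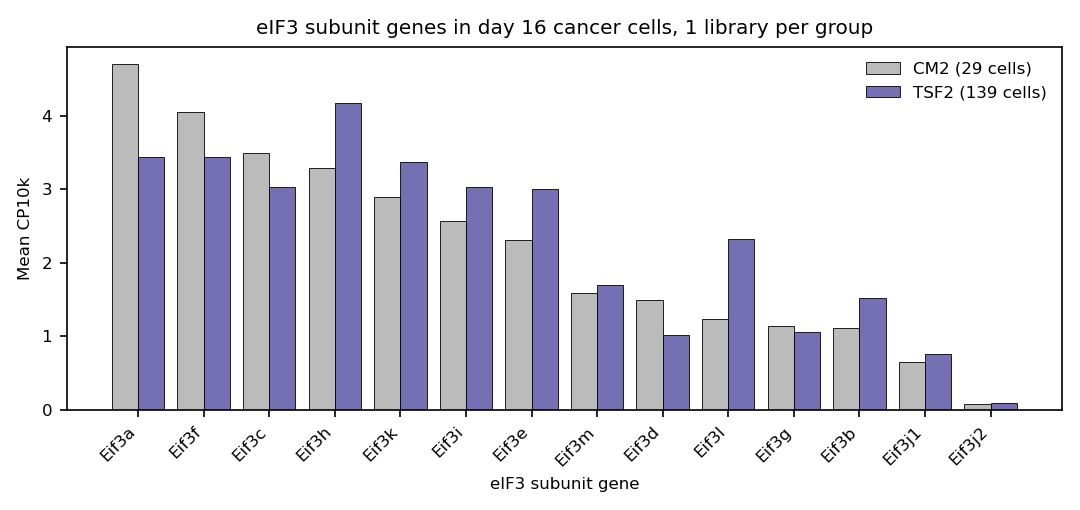
Mean CP10k (y axis) of the 14 eIF3 subunit genes (x axis, ordered by the CM2 level) in CM2 (gray, 29 cells) and TSF2 cancer cells (purple, 139 cells), with 1 library per group and no error bars because no spread over libraries exists. Eif3l has the largest ratio, from 1.23 to 2.32 CP10k, while Eif3a, Eif3f, Eif3c, Eif3d and Eif3g are lower in TSF2.

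The Eif4 group holds genes that recruit mRNA, and also inhibitors of eIF4E and genes with other roles, such as Eif4a3. By mean level, 11 of its 14 detected genes were lower in TSF2 (78.6%, beside 59.7% of all genes). Their median log2 ratio was -0.24, beside -0.13 over all genes. Centred on the median of all genes, 10 of 14 were lower, and Eif4h changes side. The summed level was 25.7 CP10k in CM2 and 20.4 CP10k in TSF2, a ratio of 0.794. Leaving out Eif4a1, the most abundant of them, gave a ratio of 0.844. None of these genes reached a 1.5-fold difference. By share of cells, with depth not accounted for, 9 of the 14 were higher in TSF2 and 5 were lower. Over all genes, 49.1% had a higher share in TSF2. Mean and share were opposed for 6 of the 14, beside 21.7% of all genes.

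Eif4a1 (ENSMUSG00000059796, GRCm38 chromosome 11, 69666936 to 69672423, minus strand), the main helicase that unwinds 5' leaders, had 8.40 CP10k in CM2 and 5.79 CP10k in TSF2, 1.44-fold lower. It was seen in all 29 CM2 cells and in 137 of 139 TSF2 cells (98.6%, interval 94.9 to 99.8%). Its paralog Eif4a2 had 1.75 CP10k in CM2 and 1.38 CP10k in TSF2 (log2 ratio -0.32). Reads of these paralogs could also be split. Eif4a3, a helicase of the exon junction complex and not of initiation, had a log2 ratio of -0.24. The helicase cofactors Eif4b and Eif4h had log2 ratios of -0.35 and -0.12, so all 5 of the helicases and cofactors were lower, or 4 of 5 after that centring.

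The scaffolds and cap-binding proteins were lower in mean level as well. By share of cells, all 3 scaffolds were higher in TSF2, while the 2 detected cap-binding proteins were lower. Eif4g2 (DAP5, a scaffold that cannot bind eIF4E) had 4.62 CP10k in CM2 and 3.28 CP10k in TSF2 (log2 ratio -0.48). Eif4g1, the main scaffold, had 2.18 CP10k in CM2 and 1.98 CP10k in TSF2 (log2 ratio -0.13), and Eif4g3 a log2 ratio of -0.34. Eif4e, the cap-binding protein, had 1.39 CP10k in CM2 and 1.12 CP10k in TSF2 (log2 ratio -0.29). Its relative Eif4e2, which is linked to repression, had 1.03 CP10k in CM2 and 0.885 CP10k in TSF2 (log2 ratio -0.19).

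The 3 genes of the group that were higher in TSF2 under each scaling all encode 4E-BPs, which bind eIF4E and block its use when not phosphorylated. Eif4ebp1 had 1.05 CP10k in CM2 and 1.499 CP10k in TSF2 (log2 ratio 0.48). A UMI of it was found in 72.4% of CM2 cells (21 cells, interval 52.8 to 87.3%) and 86.3% of TSF2 cells (120 cells, interval 79.5 to 91.6%), and these intervals overlap. Eif4ebp2 had 0.202 CP10k in CM2 and 0.245 CP10k in TSF2 (log2 ratio 0.19), and Eif4ebp3, which overlaps another gene on its strand, was seen in 2 CM2 and 14 TSF2 cells. Eif4enif1, an eIF4E transporter, was on the other side with a log2 ratio of -0.25. These are RNA levels, and the phosphorylation that controls 4E-BPs was not measured in these libraries.

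The Eef group held the most abundant factor genes, and its sum hardly differed: 95.4 CP10k in CM2 and 93.5 CP10k in TSF2. Eef1a1 (ENSMUSG00000037742, GRCm38 chromosome 9, 78478449 to 78489151, minus strand), which delivers tRNAs, made up the largest part of that, with 53.3 CP10k in CM2 and 55.8 CP10k in TSF2 (log2 ratio 0.07). All CM2 cells held a UMI of it, as did 138 of 139 TSF2 cells. Eef1a1 has many processed pseudogenes, and reads shared with them may be missing from its count.

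The exchange factor subunits of eEF1B stayed close to Eef1a1 in their ratios. Eef1b2 had 12.4 CP10k in CM2 and 13.2 CP10k in TSF2 (log2 ratio 0.09), and Eef1d 4.59 CP10k in CM2 and 4.78 CP10k in TSF2 (log2 ratio 0.06). Eef1g had 5.69 CP10k in CM2 and 5.00 CP10k in TSF2 (log2 ratio -0.18). Eef1e1, a scaffold protein of the tRNA synthetase complex despite its symbol, had a log2 ratio of 0.30 at under 1 CP10k in both libraries.

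Eef2 stood on the other side of the elongation machinery. This gene (ENSMUSG00000034994, GRCm38 chromosome 10, 81176631 to 81182498, plus strand), which encodes the translocation factor, had 17.1 CP10k in CM2 and 12.1 CP10k in TSF2, 1.41-fold lower. It was seen in all 29 CM2 cells and in 98.6% of TSF2 cells. The level of Eef1a1 was thus about as high in both libraries while that of Eef2 was lower in TSF2. Eef2k, the kinase that inactivates eEF2, was seen in 10.3% of CM2 cells (3 cells) and 10.1% of TSF2 cells (14 cells), and its difference was not detectable at this depth.

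The enzymes that methylate elongation factors had low levels and no common direction. Eef2kmt had the highest ratio, with 0.342 CP10k in CM2 and 0.515 CP10k in TSF2 (log2 ratio 0.48), although its shares were 58.6% and 59.0%. Eef1akmt1 had a log2 ratio of 0.25, Eef1akmt2 of -0.08 (which changes side on centring), Eef1akmt4 of -0.30 and Eef1aknmt of -0.28. Eef1akmt2, Eef1akmt4 and Eef1d each overlap another gene on the same strand, so their values are less certain. Eefsec, the factor that delivers selenocysteine, showed how mean and share can part: its mean was 0.180 CP10k in CM2 and 0.116 CP10k in TSF2, but it was seen in 17.2% of CM2 cells (5 cells) and 29.5% of TSF2 cells (41 cells).

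**Figure D3:**
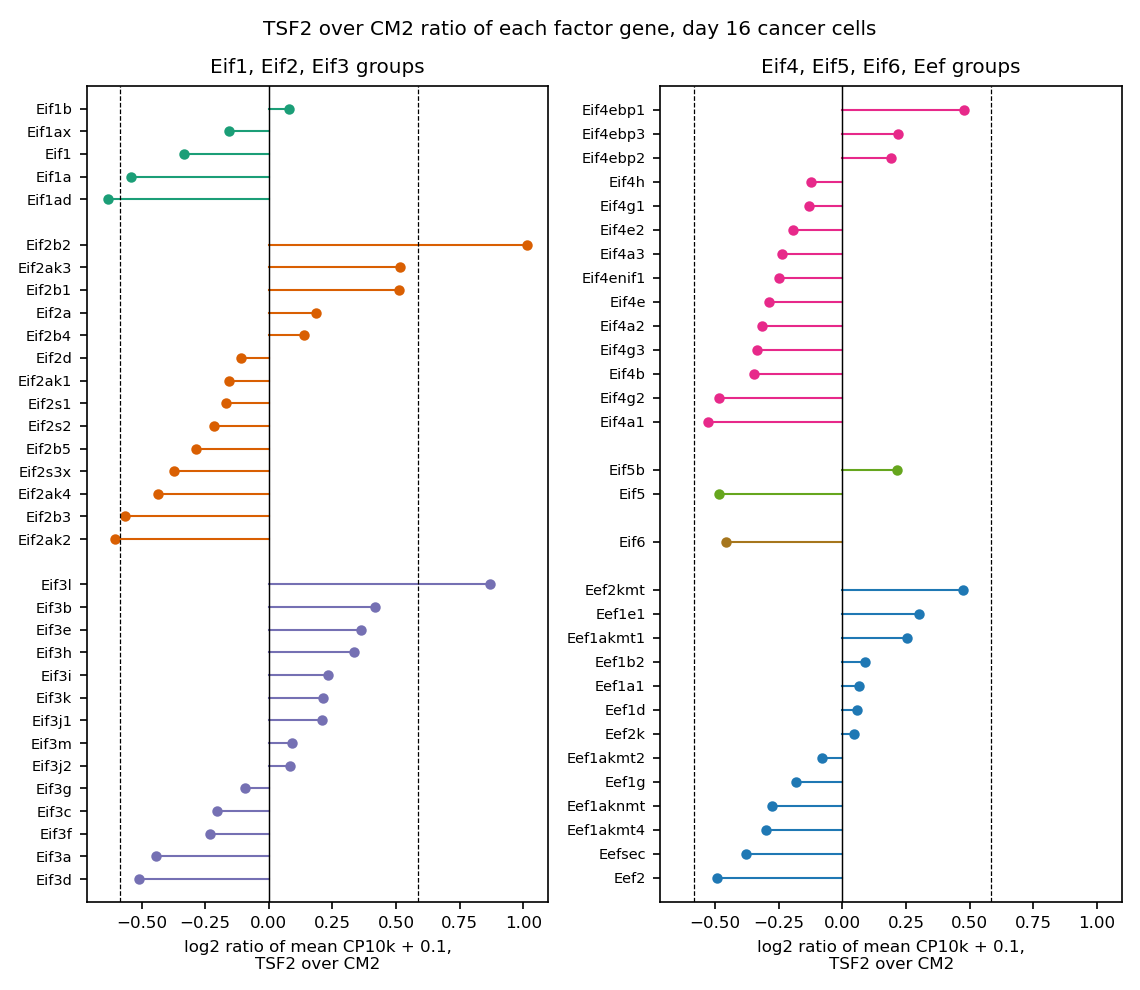
log2 ratio of mean CP10k + 0.1, TSF2 over CM2 (x axis), for each of the 63 detected factor genes, sorted within factor groups; the dashed lines mark 1.5-fold. Eif2b2 and Eif3l lie past the right line and Eif1ad and Eif2ak2 past the left line, and the 4E-BP genes are the only detected genes of the Eif4 group to the right of 0 on this scale, while Eif4h joins them after centring.

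Judged by how many cells held a UMI, 37 of 63 factor genes were higher in TSF2 (58.7%, beside 49.1% of all genes). The exact intervals of both libraries overlapped for all 63 factor genes. Over all genes, 1.14% had intervals apart with the higher share in TSF2 and 1.51% with the lower share. Shares depend on depth, and thinning to equal depth was not possible without the cell matrix. For a factor gene at the same level in both libraries, with UMIs drawn at random (Poisson), the UMI totals of these cells alone would give a higher share in TSF2 for all 63 genes, by a median of 3.46 percentage points. The observed median difference was 1.56 percentage points. For 28 of 63 genes the share in TSF2 was higher by more than depth alone gives. This count was not made over all genes, so it cannot be called high or low.

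Mean and share pointed in opposite directions for 21 of 63 factor genes (33.3%, beside 21.7% of all genes). For Eif2b2 the share that depth alone would give was 70.5% in TSF2 and 65.0% in CM2, against 77.7% and 51.7% observed. Counted over the same 63 genes, 14 were seen in at least 90% of cells of both libraries, where the share can hardly differ. In under 50% of cells of both were 15, where the 29 CM2 cells leave wide intervals. Each of these sets overlaps with the 21 opposed genes, by Eef1a1 among others in the first and by Eefsec in the second. With 29 cells, 1 cell moves a share in CM2 by 3.45 percentage points.

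**Figure D4:**
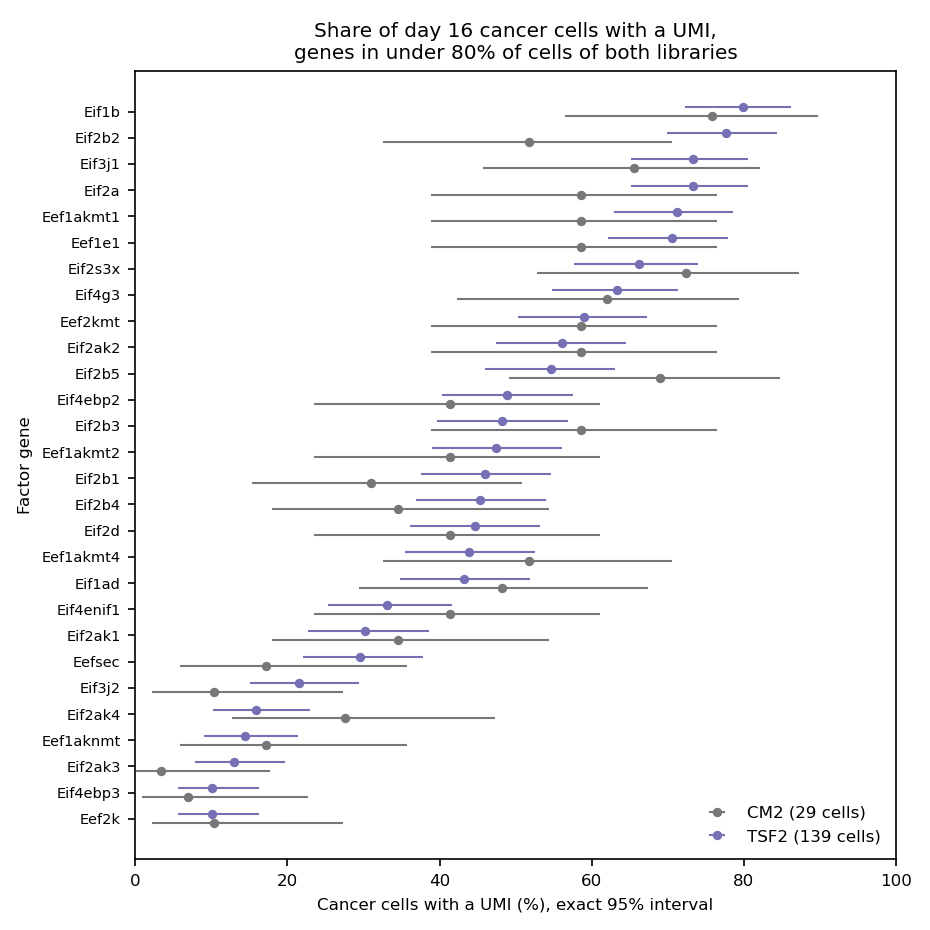
Share of day 16 cancer cells with a UMI (x axis, percent) for the 28 factor genes seen in under 80% of cells of both libraries (y axis), with points for CM2 (gray, 29 cells) and TSF2 (purple, 139 cells) and bars for the exact 95% intervals. The bars of each gene overlap, with Eif2b2 overlapping least, at 51.7% in CM2 and 77.7% in TSF2.

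The factor genes share gene sets with ribosomal protein genes, whose levels differed more. The deposited Reactome set of eukaryotic translation initiation held 116 genes of the table, of which 32 were factor genes of this list and 81 were Rpl or Rps genes. The 32 factor genes had a median log2 ratio of -0.13, with 14 above 0, beside -0.13 and 40.3% above 0 for all genes. The Rpl and Rps genes of the same set had a median of 0.34, with 70 of 79 detected genes above 0. In the set of translation elongation, 6 of 89 genes were factor genes, with a median of 0.06. Rpl and Rps genes took 23.9% of all CP10k in TSF2 and 18.6% in CM2, and a larger share for them lowers every other gene on this scale.

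Scaled without Rpl and Rps genes, the log2 ratio of the summed level was -0.23 for Eif1, -0.24 for Eif4 and 0.16 for Eif3. The sum of the Eef group changed its side, from a log2 ratio of -0.03 to 0.07, so no direction is given for it. The sum of the Eif2 group was close to even, at -0.06. The sums of the Eif1, Eif2, Eif4, Eif5 and Eif6 groups stayed lower and that of Eif3 stayed higher in TSF2. Centring on the median of all genes, which shifts each ratio by 0.13, gave the same sides as this scaling for all 7 sums.

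Other genes of translation were taken from lists written by their textbook roles. Of 46 such genes, 45 were detected, and their median log2 ratio was -0.10. At least 1.5-fold higher in TSF2 were 3 of them (6.67%, beside 7.33% of all genes) and at least 1.5-fold lower were 8 (17.8%, beside 17.3%), so the list as a whole lay near the background. Among 9 genes of termination, recycling and ribosome rescue, 0 were higher and 2 were lower by 1.5-fold. These were Abce1, which splits ribosomes, with 1.10 CP10k in CM2 and 0.535 CP10k in TSF2 (log2 ratio -0.91), and Etf1, the release factor that reads stop codons, with 1.66 CP10k in CM2 and 0.914 CP10k in TSF2 (log2 ratio -0.79). The release factor GTPase Gspt1 had a log2 ratio of -0.25.

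Among the 11 genes of poly(A)-binding proteins and mRNA regulators, Mknk2 (an eIF4E kinase, log2 ratio 0.69) was higher by 1.5-fold, and Pabpc4 (-0.66) and Larp4 (-0.98) were lower. Pabpc1, the main poly(A)-binding protein, had 13.6 CP10k in CM2 and 11.4 CP10k in TSF2 (log2 ratio -0.25). Of 3 helicases that help scanning, Dhx9 was 1.5-fold lower (log2 ratio -0.77). Of 8 partners of the elongation factors, which include the diphthamide enzymes that modify eEF2, 0 differed by 1.5-fold in either direction. The most abundant of them, Tpt1, had 44.0 CP10k in CM2 and 45.3 CP10k in TSF2.

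The 5 genes that reverse or tune eIF2 alpha phosphorylation lay on both sides, with a median log2 ratio of 0.10 and sums of 2.81 CP10k in CM2 and 2.75 CP10k in TSF2. Ppp1r15a (GADD34, a stress-induced phosphatase subunit) had 0.867 CP10k in CM2 and 0.306 CP10k in TSF2 (log2 ratio -1.25), and its constitutive relative Ppp1r15b had a log2 ratio of -0.88. Dnajc3, an inhibitor of eIF2 alpha kinases, had 0.989 CP10k in CM2 and 1.66 CP10k in TSF2 (log2 ratio 0.69). The GCN2 activator Gcn1 had a log2 ratio of 0.51. So in this list of 5 genes, 1 was 1.5-fold higher and 2 were 1.5-fold lower.

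Genes known to be induced by tissue dissociation were higher in the CM2 cells. All 10 genes of that list were lower in TSF2, beside 59.7% of all genes. Of these 10, 7 were at least 1.5-fold lower, beside 17.3% of all genes. Their sum was 130.1 CP10k in CM2 and 56.4 CP10k in TSF2. The immediate-early gene Atf3 alone had 17.5 CP10k in CM2 and 2.73 CP10k in TSF2. Eif1, Eif4a1, Eif5 and Eif4g2 were among the 37 of 63 factor genes lower in TSF2, the same side as this list. The part of this list in that result was not tested. Of the 9 leukocyte genes, 7 were at 0 in CM2 and 2 in TSF2, and the 9 summed to 21.5 CP10k in CM2 and 5.24 CP10k in TSF2. Cd74, which carcinoma cells can also express, made up nearly all of the sum in CM2 and 4.23 CP10k of it in TSF2. Next in TSF2 were S100a9 with 0.685 CP10k (4 cells) and S100a8 with 0.300 CP10k (2 cells), both at 0 in CM2. The fibroblast list summed to 0.0907 CP10k in CM2 and 0.613 CP10k in TSF2, mostly Dcn (log2 ratio 1.71), and the endothelial list to 0.0588 CP10k in CM2 and 0.163 CP10k in TSF2. The alveolar list was at 0 in CM2 and summed to 0.0591 CP10k in TSF2, all of it Ager in 1 cell. The sums of the fibroblast, endothelial and alveolar lists were thus higher in TSF2, at levels below the sum of each of the 7 factor groups. They rested on few cells. Dcn was seen in 2 CM2 and 16 TSF2 cells. Cdh5, the only endothelial gene past the detection limit, was seen in 3 CM2 (10.3%) and 6 TSF2 cells (4.32%). The part of these lists and of the leukocyte genes in the results was not tested.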

How the data were processed

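Lungs of the CM and TSF mice were profiled by 5' single-cell RNA sequencing. The submitters' processing notes name Cell Ranger and Seurat 4.1.0. Reads were aligned to mm10 (GRCm38.p6) with the CD90.1 sequence added, and ambient RNA was removed with an adapted SoupX. Multiplets were sought by the authors among all cells, with scDblFinder scores as a check. They removed none when sub-clustering the cancer cells, and no doublet caller was run here. For each gene the authors deposited the mean CP10k (UMI count of the gene per 10000 UMIs of a cell) and the percent of cells with a UMI, over the cancer cells of each library. The authors also deposited UMI counts per cell in the cell annotation, from which depth was taken. Their own fold changes, p-values, q-values and gene set scores were not used, the 3 day 11 libraries were not compared here, and 2 further libraries of the cell table, which match no sample used here, were left out.

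Ratios, shares with intervals (95%) and group sums were computed with Python 3.11.15, numpy 2.4.6, pandas 2.3.3 and scipy 1.17.1, and drawn with matplotlib 3.10.9. Genes needed a UMI in at least 10% of cells of either library. The computation was tested on simulated data. With 1 library per group no p-value was computed. Shares could not be thinned to equal depth, since the cell matrix was not used here. Alternatives were other pseudocounts, filters, fold limits, scalings and intervals.

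The members and lists were chosen with earlier results of these data known. Every member could be named. Full values were kept for the most abundant member of each group, those past 1.5-fold and the paralog, kinase and eIF2B groups, and in the other lists for the 3 most abundant genes and those past 1.5-fold. Start windows came from RefSeq (52 of 67 genes matched by symbol).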

Additional observations from a re-analysis of the deposited data

How the results depend on the processing

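The ratios rest on 1 library per group and on 29 CM2 cells, so no replicate could be left out. No paired analysis was possible because each group had 1 library. The median log2 ratio of all genes was -0.13, and centring on it moved the median of the factor genes to -0.030. The number of factor genes past the fold limit, 2 higher and 2 lower as reported, became 0 and 0 with a pseudocount of 1 CP10k, 5 and 5 with 0.01 CP10k, 4 and 1 when scaled without Rpl and Rps genes, 6 and 0 when centred, 9 and 17 at a lower fold limit, and 1 and 0 at a 2-fold limit. Both filters on detection kept the factor gene counts at 2 and 2. All-gene shares were then 5.49% and 12.4% with no filter beyond a UMI in 1 cell, and 7.77% and 18.8% at 25% of cells. Without its most abundant gene, the log2 ratio of the summed level was 0.22 for Eif5 and -0.16 for Eef. Centred on all genes, an alternative added for sums after seeing the data, it was -0.20 for Eif1, -0.032 for Eif2, 0.19 for Eif3, -0.21 for Eif4, -0.13 for Eif5, -0.36 for Eif6 and 0.10 for Eef. With Wilson intervals the shares of 1 gene, Eif2b2, were apart. Single genes were followed under another pseudocount or scaling for a chosen part of the factor genes only. Of their values, 41 moved by less than 0.1 on the log2 scale and 31 by more, and no gene past 1.5-fold changed its side. Centring shifts every gene by the same amount, which is above 0.1, so all centred values were bound to be among the 31.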

Other observations

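Mitochondria have their own translation factors, which were listed apart from the cytoplasmic ones. All 10 listed genes were detected, with a median log2 ratio of -0.12, and they summed to 2.48 CP10k in CM2 and 2.19 CP10k in TSF2. Tufm, the mitochondrial counterpart of eEF1A, had 0.583 CP10k in CM2 and 0.584 CP10k in TSF2. Its exchange factor Tsfm had 0.452 CP10k in CM2 and 0.374 CP10k in TSF2 (log2 ratio -0.22).

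Gfm1 and Gfm2, the elongation factors G of mitochondria, lay on opposite sides. Gfm1, which moves the ribosome, was lower in TSF2, with 0.378 CP10k in CM2 and 0.202 CP10k in TSF2 (log2 ratio -0.66). Gfm2, which acts in recycling, was higher, with 0.0158 CP10k in CM2 and 0.115 CP10k in TSF2 (log2 ratio 0.89), but it was seen in only 2 CM2 cells (6.90%, interval 0.846 to 22.8%) and 22 TSF2 cells (15.8%, interval 10.2 to 23.0%), and these intervals overlap.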
